A study of Mus musculus with 32 samples.

Results

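Gene expression in mouse embryonic fibroblasts without Sprouty1, Sprouty2 and Sprouty4 was compared with that in floxed fibroblasts 60 min after fibroblast growth factor (FGF) was added. The comparison holds 6 of the 32 arrays of the series, 3 of KO cells (Spry124-/-) and 3 of WT cells (Spry124fl/fl, in which the floxed genes are intact), chosen by the labelled genotype and the labelled time of 60 min. All groups were immortalized fibroblasts, starved of serum in DMEM with bovine serum albumin, penicillin and streptomycin, and the same genotypes were profiled at 0, 15, 120 and 240 min. The labels do not state which FGF was given, how the genes were deleted, or whether a genotype is 1 clone, 1 line or several. The replicates A to C are called biological, but what was grown and extracted separately is not stated, so the p-values measure only the spread between these samples.

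FGF binds receptor tyrosine kinases, which switch on the Ras-ERK cascade. Within the first hour ERK drives the immediate early genes, many of which encode transcription factors such as Egr and Fos, and the feedback genes, which encode inhibitors of the same cascade. Sprouty proteins belong to these inhibitors, and the design names the loss of their feedback, and the title the regulation of Wnt pathway genes, as the questions of the study.

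Values are log2 intensities of an Illumina bead array after background correction and quantile normalization, on which the dimmest probes lie a little above 4, and a difference is KO minus WT on that scale. A gene was called where the adjusted p of limma's moderated test was under 0.05 over the 10903 genes tested. A probe counted as detected where its detection p against the negative controls was under 0.05. The KO arrays detected 12470, 12202 and 11928 of 25697 probes, and the WT arrays 11582, 11664 and 11978. Arrays of 1 genotype correlated at 0.992 to 0.995 over all probes, and arrays of different genotypes at 0.974 to 0.977. Of the 12 fibroblast markers on the array, 10 were detected on all KO arrays (all but Fap and Lum) and 10 on all WT arrays (all but Fap and Pdgfrb).

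Spry4 was the targeted gene with a usable signal. Its probe read 4.69, 4.63 and 4.60 on the KO arrays, not detected on any, against 5.60, 6.04 and 5.93 on the WT arrays, where all 3 detected it. The groups did not overlap, and Spry4 was at least 2-fold lower in KO cells (limma adjusted p = 2.48e-07). Spry1, read by 2 probes, and Spry2, read by 1, were not detected on any array of either genotype, so these probes check nothing. Spry3, the family member that was not targeted, read 4.35, 4.32 and 4.37 on KO arrays, not detected, against 6.51, 6.53 and 6.66 on WT arrays, and was at least 3.28-fold lower in KO cells (limma adjusted p = 7.29e-16). Whether the probes of Spry1, Spry2 and Spry4 lie inside the deleted parts is not known. The cause of the Spry3 difference was not tested.

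At 60 min, 4579 genes (42% of those tested) were called, 2284 (20.9%) higher and 2295 (21%) lower in KO cells. Of these, 371 higher (3.4%) and 218 lower genes (2%) differed by 2-fold or more. The median over all genes was -0.02. When each array was scaled to its median instead of by quantiles, the share of higher genes among the called was 41.9% over all probes and 39.5% over the kept probes, against 49.9% here, and the median over all genes lay at -0.05 and -0.06. For 5378 genes (49.3%) the KO and the WT arrays did not overlap, and 4313 of these (39.6% of all tested) were called. In bulk RNA, fewer cells with a transcript and less transcript per cell cannot be told apart.

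The 12 largest rises in KO cells began with Igfbp7 and Ptn. Igfbp7, a binding protein of insulin-like growth factors, read 12.66, 12.47 and 12.38 on KO arrays, against 6.0, 6.01 and 5.98 on WT arrays, a difference of 6.51 (SE 0.10, 91-fold, adjusted p = 6.97e-28). The heparin-binding growth factor Ptn read 9.64, 9.47 and 9.42 in KO cells, against 4.28, 4.29 and 4.33 in WT cells, where it was not well above background, so that it was at least 24.1-fold higher. Both were bright on every KO array and dim on every WT array. Dlk1, an imprinted membrane protein that restrains differentiation, was at least 23.4-fold higher. Gas6, a ligand of the Axl family of receptor kinases, was at least 13.4-fold higher, and Ctsk, a protease that cleaves collagen, at least 11.7-fold. The imprinted gene Ndn, whose protein Necdin restrains growth, was at least 13.8-fold higher, and the vesicle protein Svop at least 16.5-fold. Pdzrn3, a ubiquitin ligase, and Sncg, a synuclein, rose by 5.17 and 4.41, but their other kept probes differed by as little as 0.37 and 1.67.

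The 12 largest falls began with Angptl7. Angptl7, an angiopoietin-like protein, read 4.87, 4.66 and 4.38 on KO arrays, of which 1 detected it, against 11.99, 11.84 and 11.85 on WT arrays. This difference of -7.26 (SE 0.13, adjusted p = 4.81e-26) was the largest of either direction. The growth factor Igf2 read 9.42, 9.07 and 9.22 in KO cells, against 13.35, 13.31 and 13.35 in WT cells, 17.1-fold lower, and was well detected in both. The chemokine Ccl17 was 16.2-fold lower and Igfbp5 13.7-fold lower in KO cells. Rgcc, a regulator of cell cycle kinases, was 14.3-fold lower, the homeobox gene Rhox5 fell by 3.75, and the zinc finger factor Osr2, not detected on KO arrays, at least 24.4-fold lower. The neuronal growth protein Gap43 was at least 9.85-fold lower, and Tmem158, a membrane protein induced by Ras, fell by 3.40 on the log2 scale.

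**Figure D1:**
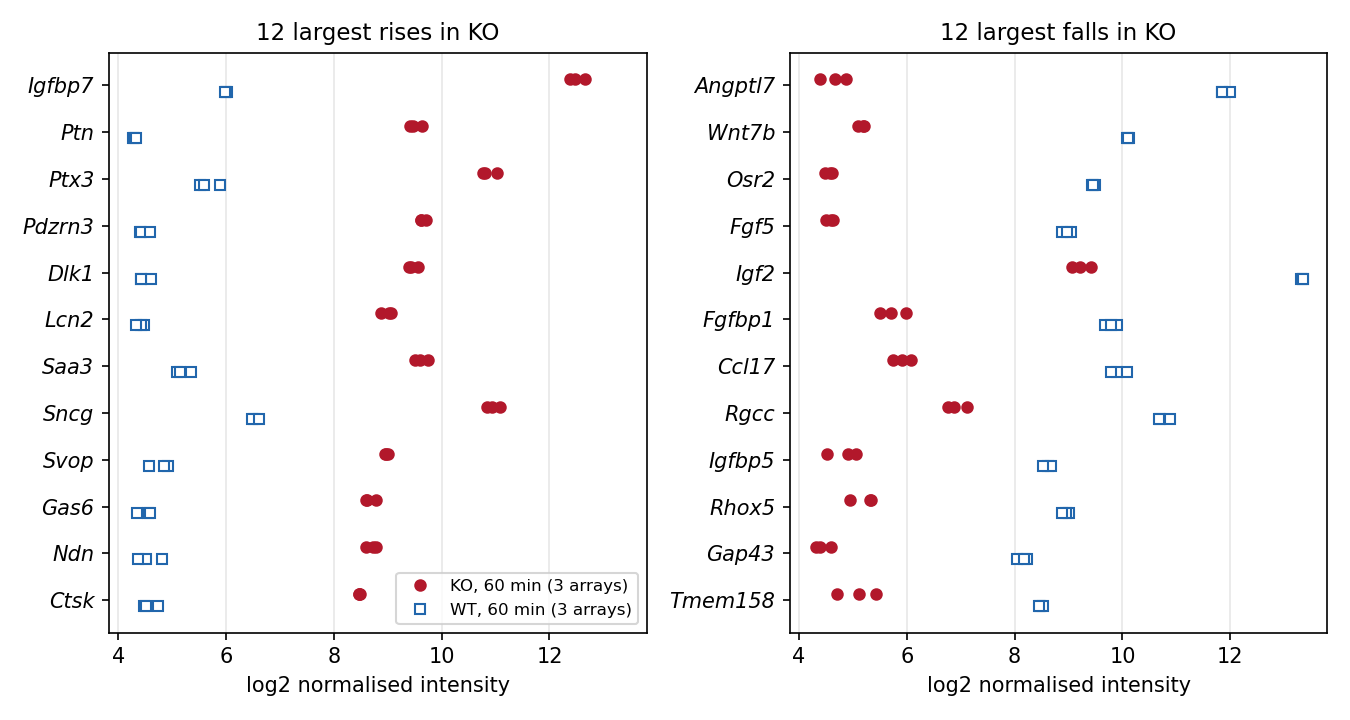
Log2 normalised intensity at 60 min of the 12 genes with the largest rises (left) and the 12 with the largest falls (right) in KO cells, each KO array as a filled circle and each WT array as an open square. No KO array overlaps a WT array for any of these genes, which were chosen for that, and many lie near 4 to 5 in the lower genotype, where probes are at background.

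Among the FGF ligands, receptors and co-receptors, 7 of 19 tested members were higher, 5 lower and 7 not called (63.2% called, median -0.03). The 2 largest differences were both falls. Fgf5, an FGF ligand, read 4.63, 4.60 and 4.50 on KO arrays, not detected, against 8.87, 9.05 and 8.98 on WT arrays, and was at least 17.3-fold lower in KO cells. Fgfbp1, a carrier that releases FGFs from the matrix, read 5.51, 5.71 and 5.99 in KO cells, against 9.90, 9.68 and 9.78 in WT cells, 16.6-fold lower. The heparan sulfate proteoglycans Sdc2 and Gpc1, which serve as co-receptors, fell by 1.05 and 1.02, while their relatives Sdc3 and Gpc3 rose by 0.93 and 0.98. The receptors Fgfr1 (difference 0.42, adjusted p = 0.114) and Fgfr2 (-0.08, adjusted p = 0.704) were not called. Sdc3, Gpc3, Fgfr1 and Fgfr2 were named outside the rule. Of the Ras-ERK cascade components, 3 of 16 were higher and 3 lower, so that 37.5% were called, beside 42% of all genes, and 5 were lower with median scaling over the kept probes. The adaptor Shc1 rose by 0.99, although another of its probes differed by -0.10, and the Ras inhibitor Rasa2 rose by 0.69.

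The feedback inhibitors that remain in KO cells went both ways, with 5 of 15 tested members higher, 4 lower and 6 not called (60% called, median -0.21). Dusp7, a phosphatase of ERK, read 8.46, 8.87 and 8.91 on KO arrays, against 7.87, 7.98 and 7.80 on WT arrays, and rose by 0.86 (SE 0.14, adjusted p = 8.33e-06). Dusp4, which acts on ERK in the nucleus, rose by 0.74, Lrig1, an inhibitor of receptor kinases, by 0.78, and Spred1, a relative of Sprouty that blocks Ras, by 0.58. Dusp6, the ERK phosphatase of the cytoplasm, fell by 0.64 (SE 0.09, adjusted p = 1.78e-06), the phosphatase Dusp14 by 0.91, and Errfi1, an inhibitor of the EGF receptor, by 0.67. The groups did not overlap for any of these 7 genes, which holds for 49.3% of all genes tested and for 4313 of the 4579 called. The calls of the other 2 members ended under some settings. Dusp2 fell by 0.42. With 1 array left out and the same probe kept, its difference ran from -0.53 to -0.28 and the call was lost without KO replicate A (adjusted p = 0.123) or WT replicate C (0.0724). With the brightest probe picked anew it was lost in all 6 (up to 0.845). Ier3 rose by 0.25, and its adjusted p was up to 0.718 with median scaling.

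Immediate early genes did not move as a group. Among Egr factors and their partners 2 of 6 were higher and none lower (33.3% called, median 0.10). Egr4, a zinc finger factor, read 5.51, 5.64 and 5.31 on KO arrays, against 4.44, 4.45 and 4.51 on WT arrays, where it was not well above background, so that it was at least 1.48-fold higher (adjusted p = 1.88e-08). Egr1, the best known of these factors, was bright in both, at 13.99, 14.03 and 14.22 in KO cells and 13.92, 13.77 and 13.79 in WT cells, and its difference of 0.26 (SE 0.16, adjusted p = 0.227) was not called. Egr2 (-0.15), Egr3 (-0.06) and Nab2 (-0.13) were not called either, while Nab1, a repressor that binds Egr proteins, rose by 0.63.

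Of the Fos and Jun factors, which pair to form AP-1, 4 of 10 were higher and 2 lower (60% called, median 0.07). Fos read 8.96, 8.16 and 8.40 on KO arrays, against 7.16, 7.0 and 6.78 on WT arrays, and rose by 1.53 (SE 0.27, adjusted p = 3.23e-05). Every KO array lay above every WT array, though the KO arrays spread more widely. Jun (0.48), Junb (0.44) and Fosl1 (0.48) were called higher as well, but with median scaling of all probes Jun had an adjusted p of 0.0679 and Junb of 0.122. Fosl1 lost its call without KO replicate B (difference 0.30, adjusted p = 0.117). The list then held 2 higher members with either median scaling. Fosb, at a difference of 0.01, was not called. Atf3, a factor of stress responses, fell by 0.59, and Batf3 was at least 1.55-fold lower, not detected in KO cells.

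Of the other immediate early genes, 10 of 27 tested were higher and 8 lower (66.7% called, median 0.01). The higher count was 6 with either median scaling and with the 6 arrays alone, 6 without WT replicate B and 5 without KO replicate A. The largest rise was that of Zfp36, whose protein tristetraprolin speeds the decay of cytokine mRNAs. It read 9.89, 9.77 and 9.78 on KO arrays, against 8.37, 8.27 and 8.16 on WT arrays, a difference of 1.55 (SE 0.15, 2.93-fold, adjusted p = 3.00e-09). The clock gene Per2 rose by 1.09, Cebpb, a factor of the inflammatory response, by 0.78, and Bhlhe40 by 0.58. The kinase Sgk1 read 13.15, 13.15 and 13.23 in KO cells, against 14.02, 14.01 and 13.86 in WT cells, and fell by 0.79 (SE 0.07, adjusted p = 5.98e-10). The kinase Plk3 fell by 0.81, Ier5l by 0.83, the stress gene Gadd45b by 0.68 and the helix-loop-helix inhibitor Id1 by 0.54. Csrnp1 (0.09), Phlda1 (-0.09), Myc (-0.25) and Arc (0.02), all common markers of growth factor induction, were not called.

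The promoters of 4 genes on which these results turn are shown, since their letters let the genes be set side by side. All 4 were higher in KO cells at 60 min. For the chemokine Cxcl1 the difference was smaller at 60 min than at 0 min. Each stretch is the 250 bases before a transcription start in RefSeq (GRCm38.p6), with matches to any searched motif in capitals. Sites further upstream were not searched.
Zfp36, chr7:28379229-28379478, minus strand: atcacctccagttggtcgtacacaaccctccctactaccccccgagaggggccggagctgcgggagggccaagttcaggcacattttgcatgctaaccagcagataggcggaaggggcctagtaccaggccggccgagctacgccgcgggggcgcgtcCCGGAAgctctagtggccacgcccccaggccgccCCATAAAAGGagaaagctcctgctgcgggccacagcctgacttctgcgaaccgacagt
Egr4, chr6:85513590-85513839, minus strand: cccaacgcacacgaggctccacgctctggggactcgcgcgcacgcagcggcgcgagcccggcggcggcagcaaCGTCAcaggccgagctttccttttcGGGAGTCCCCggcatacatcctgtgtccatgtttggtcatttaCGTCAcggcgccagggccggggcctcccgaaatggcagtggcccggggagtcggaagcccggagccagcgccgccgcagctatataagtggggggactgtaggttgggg
Fos, chr12:85473640-85473889, plus strand: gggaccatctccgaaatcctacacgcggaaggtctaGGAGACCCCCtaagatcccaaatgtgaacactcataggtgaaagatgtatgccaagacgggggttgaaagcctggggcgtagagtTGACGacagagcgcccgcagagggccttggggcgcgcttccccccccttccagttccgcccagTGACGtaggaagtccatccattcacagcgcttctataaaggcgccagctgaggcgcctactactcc
Cxcl1, chr5:90890995-90891244, plus strand: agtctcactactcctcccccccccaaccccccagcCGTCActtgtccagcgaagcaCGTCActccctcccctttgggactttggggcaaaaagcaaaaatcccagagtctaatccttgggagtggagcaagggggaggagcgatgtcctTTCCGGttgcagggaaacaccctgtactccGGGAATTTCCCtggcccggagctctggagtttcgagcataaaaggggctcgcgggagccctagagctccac

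The motifs searched, on both strands, were the CArG box bound by serum response factor, the cyclic AMP response element TGACGTCA and its shorter core TGACG, the AP-1 site TGANTCA, the NF-kappaB site, the Ets core CCGGAA and the E-box CACGTG. The core lies inside the full element. The capitals of Zfp36 mark a CArG box 58 to 49 bases before the start, and those nearest the start of Cxcl1 mark an NF-kappaB match 71 to 61 bases before it. Over 32851 RefSeq promoters that also include 50 bases after the start, 1.63% held a CArG box, 4.51% an NF-kappaB match, 14.9% the Ets core, 20.8% TGACG, 1.79% TGACGTCA, 7.81% the AP-1 site and 7.15% the E-box. Of 65 named immediate early, feedback and cytokine genes, 51 had a promoter in the table, while Egr1, Egr3 and Ier2 were among those without. Among the 51 a CArG box was in 2 (Zfp36 and Egr2), an NF-kappaB match in 9, the Ets core in 9 and TGACG in 28. TGACGTCA was in 5, the AP-1 site in 3 and the E-box in 11. A gene counted where any of its promoters held the motif, and some had several, such as Sgk1 with 6 and Egr2 with 5. The shares above are per promoter, so the counts per gene cannot be set directly against them. Sites outside the searched bases were not looked for, so a missing match does not mean that a gene lacks the site.

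Cytokines, chemokines and colony-stimulating factors were mostly higher in KO cells, with 13 of 19 tested members higher, 2 lower and 4 not called (78.9% called, median 0.92). Cxcl1, which attracts neutrophils, read 12.52, 12.78 and 12.58 on KO arrays, against 9.72, 9.54 and 9.58 on WT arrays, and rose by 3.01 (SE 0.11, 8.07-fold, adjusted p = 2.03e-18). The monocyte chemokine Ccl7 rose by 2.66, the macrophage growth factor Csf1 by 2.29, and Cxcl16, not detected in WT cells, was at least 6.77-fold higher. The IL-6 family member Il6 rose by 0.92 and the granulocyte-macrophage factor Csf2 was at least 1.82-fold higher. The 2 that fell were Ccl17 and the interferon-induced chemokine Cxcl10 (-1.51, named outside the rule after its value was seen). Of the cytokine receptors, Socs and Stat genes, 7 of 12 were higher and none lower (58.3% called, median 0.42), though 2 were lower without KO replicate A and 1 without WT replicate C. Among them Osmr, a receptor of oncostatin M, rose by 1.80, the factor Stat3 by 0.96 and Cish, a feedback inhibitor of Stat signalling, by 0.75.

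NF-kappaB is held in the cytoplasm by IkappaB proteins, several of which are its own targets. Of the subunits and inhibitors 9 of 14 were higher, 2 lower and 3 not called (78.6% called, median 0.35). Nfkbia, the main IkappaB, read 10.24, 10.03 and 10 on KO arrays, against 8.31, 8.22 and 8.42 on WT arrays, and rose by 1.77 (SE 0.10, adjusted p = 1.00e-14). Nfkbiz rose by 1.32 and Nfkbie by 0.71. Tnfaip3, an enzyme that ends NF-kappaB signalling, was called lower at -0.37, but was not without KO replicate A, KO replicate C or WT replicate A (adjusted p up to 0.12). The list's lower count was 0 without KO replicate C and 1 without WT replicate A or C.

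Of the acute-phase and innate defence genes 8 of 11 were higher, none lower and 3 not called (72.7% called, median 0.73). The pentraxin Ptx3 read 11.02, 10.77 and 10.80 on KO arrays, against 5.88, 5.52 and 5.60 on WT arrays, 36.7-fold higher. Saa3, an acute-phase protein, was 21.4-fold higher, and the iron-siderophore carrier Lcn2, not detected in WT cells, at least 16.8-fold higher. The receptor Tlr2 rose by 1.78. Macrophage and leukocyte markers were low in both genotypes: Ptprc, Adgre1 and Itgam were not detected on any of the 6 arrays. The summed linear level of the 3 tested markers of that list was 145 to 170 on KO arrays and 29.4 to 40.7 on WT arrays, beside 20900 to 23900 and 28600 to 30100 for the fibroblast markers. Of these 3, the lysozyme Lyz1 rose by 2.05. The part of other cell types in these results was not tested.

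The Wnt pathway genes named in the title of the series went both ways, in 4 lists of which between 21.4% and 55.6% of the tested members were called, beside 42% of all genes. Wnt ligands bind Frizzled receptors with the co-receptors Lrp5 and Lrp6, which stabilizes beta-catenin, and secreted antagonists bind either side. Of the ligands and secretion genes, 2 of 9 tested were higher and 3 lower (55.6% called, median 0.06), and 10 more on the array were too dim to test. The ligand Wnt7b read 5.20, 5.19 and 5.10 on KO arrays, against 10.08, 10.12 and 10.10 on WT arrays, 30.6-fold lower (adjusted p = 4.81e-26), and its other kept probe differed by -1.56. Wnt10a read 6.11, 6.08 and 6.02 in KO cells, against 4.35, 4.55 and 4.59 in WT cells, not well above background there, and was at least 2.22-fold higher. These 2 ligands thus differed between the genotypes in opposite directions. Wls, which carries Wnt proteins to the surface, rose by 0.86. Wnt5a fell by 0.34 and Rspo2, an enhancer of Wnt signals, by 0.63, and neither call held without WT replicate A (adjusted p = 0.0535 and 0.139), which left 1 lower member.

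Among the Wnt receptors 3 of 12 were higher and 2 lower (41.7% called, median 0.14). Fzd7 read 7.77, 7.73 and 8.03 on KO arrays, against 6.85, 6.63 and 6.49 on WT arrays, and rose by 1.19 (SE 0.12, adjusted p = 7.45e-09). Ror2 and Ptk7, receptors of the beta-catenin-independent branch, rose by 0.93 and 0.99. Fzd1 fell by 0.68 and Fzd6 by 0.59, while Lrp5 (0.39, adjusted p = 0.0525) and Lrp6 (0.12) were not called. Of the antagonists 3 of 9 were higher and 2 lower (55.6% called, median 0.03). Dkk3, a member of the Dickkopf family, read 4.64, 4.42 and 4.42 in KO cells, not detected, against 6.60, 6.47 and 6.56 in WT cells, and was at least 3.23-fold lower. Apcdd1, a membrane inhibitor, fell by 1.21, and Sfrp1, a secreted Frizzled mimic, rose by 0.74. The other 2 higher antagonists, Kremen1 and Sfrp2, were lost with the 6 arrays alone and without KO replicate C, WT replicate A or WT replicate B, leaving a count of 1. The beta-catenin factors and targets held 3 of 14 higher and none lower (21.4% called, median 0.16), with Apc at 0.80, Tcf7l2 at 0.46 and Pygo2 at 0.33. The count was 5 without WT replicate A. With the mean of a gene's kept probes, Apc (0.21, adjusted p = 0.202) and Tcf7l2 (0.28, 0.0703) were not called, and Pygo2 was not with median scaling (up to 0.333) or without KO or WT replicate C. Ctnnb1 (0.14) and the target Ccnd1 (0.02) were not called, though Ccnd1 was at 0.32 with the mean of its probes (0.0233), and Axin2 and Lef1 were too dim to test.

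Genes of the endoplasmic reticulum stress and amino acid response were lower in KO cells, with 16 of 21 tested members lower, 2 higher and 3 not called (85.7% called, median -0.79). Asns, which makes asparagine, read 10.71, 10.87 and 10.90 on KO arrays, against 12.19, 12.22 and 12.09 on WT arrays, and fell by 1.34 (SE 0.07, adjusted p = 4.41e-15). The serine pathway enzyme Shmt2 fell by 1.57, the pseudokinase Trib3 by 1.33, and Chac1, which breaks down glutathione, by 1.29. The 2 that rose were Vldlr, a lipoprotein receptor, at 1.54 and Dnajb9 at 0.35 (Dnajb9 was named outside the rule, after its value was seen). With median scaling of either kind, or without KO replicate B, 1 member was called higher.

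Ribosome biogenesis genes were lower without exception among those called, 13 of 18 lower and 5 not called (72.2% called, median -0.62). Pes1, which matures the large subunit, read 9.39, 9.56 and 9.56 on KO arrays, against 10.74, 10.78 and 10.62 on WT arrays, and fell by 1.21 (SE 0.08, adjusted p = 5.35e-13). Noc4l fell by 1.04, Rrs1 by 0.99 and the helicase Ddx21 by 0.72. Of the G1/S and DNA replication genes 11 of 19 were lower, 2 higher and 6 not called (68.4% called, median -0.36), with 1 higher without KO replicate B or WT replicate C. The replication licensing genes Cdc6, Mcm7, Mcm5 and Mcm6 fell by 1.27, 1.03, 0.94 and 0.88. Ung, a DNA repair glycosylase, fell by 1.73, but another of its probes differed by -0.20. The mitosis genes were mostly not called, with 2 of 9 lower (22.2%, median -0.05), and 1 lower with the 6 arrays alone or without KO or WT replicate C. Without KO replicate A 1 was higher. Of cyclin D, Cdk4, Cdk6 and their inhibitors 6 of 10 were higher and none lower (60% called, median 0.42). The kinase inhibitor Cdkn2b rose by 0.94 and Cdkn1c was at least 1.74-fold higher, and the cyclins Ccnd2 and Ccnd3 rose by 0.62 and 0.50, but with the mean of its probes Ccnd3 stood at 0.18 (adjusted p = 0.137). The list had 1 lower member without KO replicate A or WT replicate C.

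Among matrix proteases and their inhibitors 12 of 18 were higher and 1 lower (72.2% called, median 0.57). The stromelysin Mmp3 read 9.02, 9.20 and 8.98 on KO arrays, against 5.45, 5.68 and 5.17 on WT arrays, 12.4-fold higher. Mmp9 rose by 1.71, Mmp10 by 1.41 and Adamts5, which cleaves aggrecan, by 1.35. The collagens and other matrix proteins went both ways, 12 of 23 higher and 6 lower (78.3% called, median 0.33). The proteoglycan Dcn read 10.20, 10.07 and 9.96 in KO cells, against 13.38, 13.38 and 13.29 in WT cells, 9.67-fold lower. Thbs2, an inhibitor of blood vessel growth, was 9.95-fold higher, and Tnc and Thbs1 rose by 1.29 and 1.30. Of the contractile and Ccn genes driven by serum response factor 4 of 14 were higher and 5 lower (64.3% called, median 0.04). Smooth muscle actin, Acta2, read 14.37, 14.45 and 14.18 on KO arrays, against 11.67, 11.92 and 11.84 on WT arrays, 5.75-fold higher, while Ankrd1 fell by 1.24.

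Other growth factor families also differed. Of the TGF-beta and BMP genes 9 of 18 were higher and 2 lower (61.1% called, median 0.37), and Bmp4 read 7.75, 7.83 and 7.62 in KO cells, against 5.74, 5.54 and 5.22 in WT cells, 4.7-fold higher. The lower count was 1 without KO replicate A or WT replicate B. The BMP antagonist Grem1 rose by 1.46. Of the EGF family ligands and receptors 2 of 6 were higher and 2 lower (66.7% called, median 0.07). The higher count was 1 without KO replicate A, and the lower count 1 with the 6 arrays alone. The EGF receptor ligand Hbegf fell by 1.21 (adjusted p = 7.52e-11). Of the genes of the insulin-like growth factor system 1 of 11 was higher and 5 lower (54.5% called, median -0.09), and 2 were higher without KO replicate C. Notch1 and Notch3 rose by 1.78 and 1.11, the only 2 of 6 Notch genes called (33.3%, against 42% of all genes). Without WT replicate C, 1 Notch gene was called lower. Among the interferon-stimulated genes 2 of 11 were higher and 5 lower (63.6% called, median -0.22), with Gbp2 at 2.45 and Ifit3 at -1.49.

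**Figure D2:**
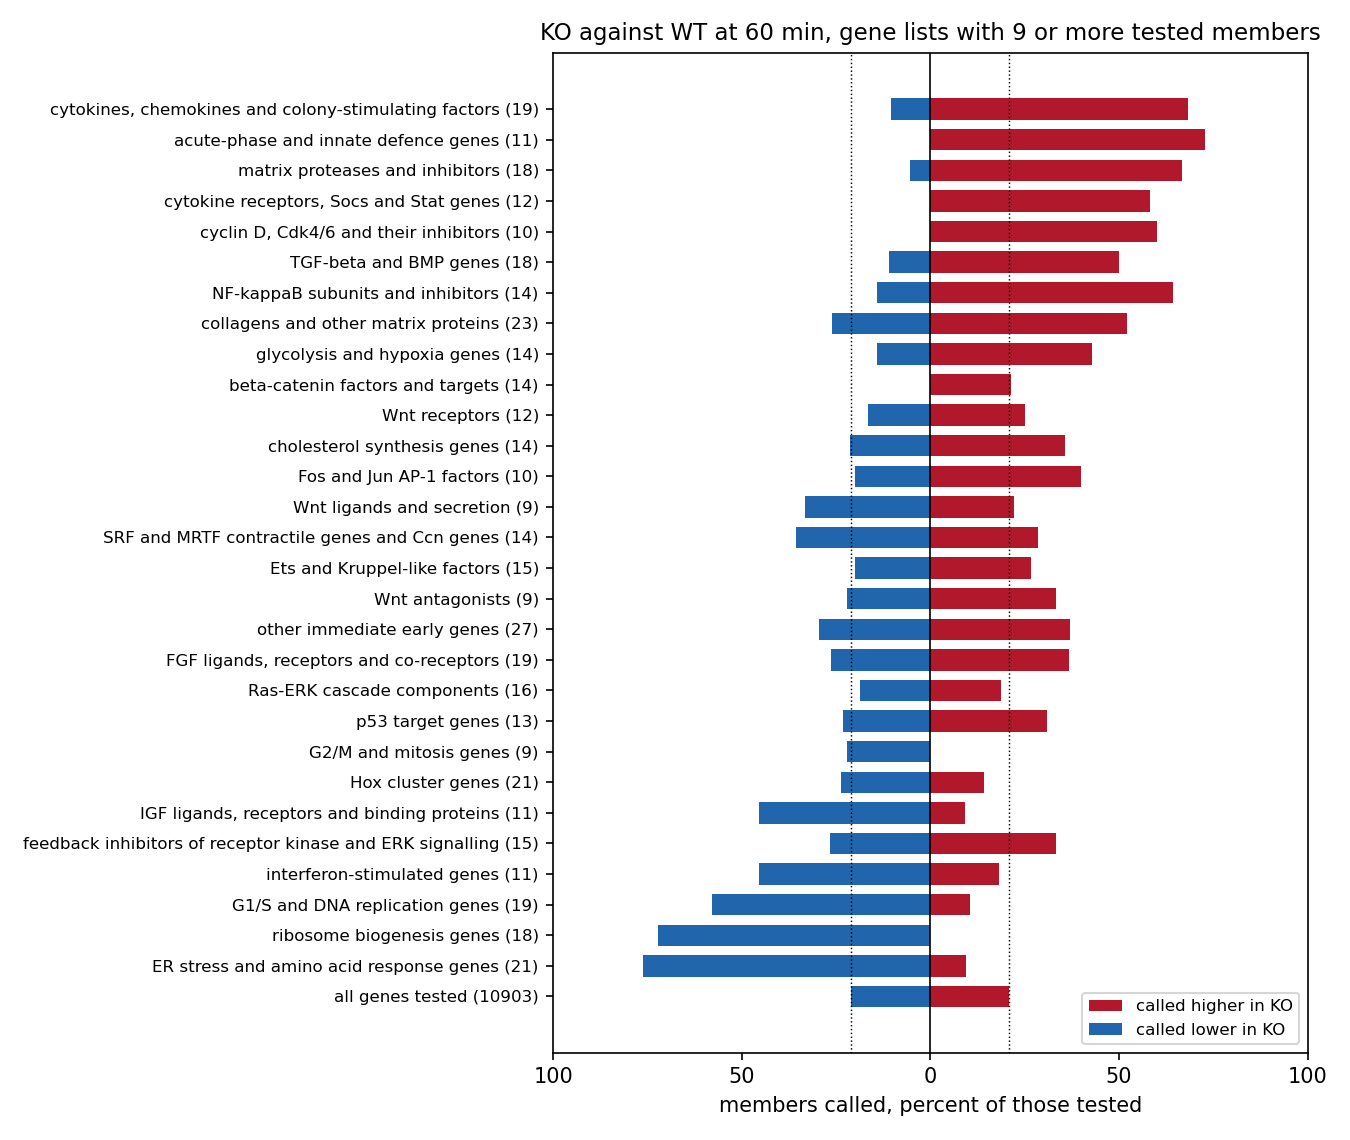
Percent of the tested members of each gene list that were called higher (right) or lower (left) in KO cells at 60 min, for the lists with 9 or more tested members, their number in brackets. The dotted lines mark the shares over all 10903 genes, 20.9% higher and 21% lower. Ribosome biogenesis and mitosis have no bar to the right, and the acute-phase, cytokine receptor, beta-catenin and cyclin D lists none to the left.

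The comparison before FGF, at 0 min, rests on 4 other arrays per genotype. There 4995 genes (45.8%) were called, and 3550 genes were called at both times in the same direction, which is 77.5% of the calls at 60 min and 71.1% of those at 0 min. Across the 10903 genes, which are not independent replicates, the differences at 60 and 0 min correlated with a Pearson r of 0.906 and a Spearman rho of 0.8. Of the 589 genes called and past 2-fold at 60 min, 440 were so at 0 min in the same direction. Igfbp7, for example, differed by 6.51 at 60 min and by 6.64 at 0 min, and Angptl7 by -7.26 and -7.12. Several gene lists also leaned the same way before FGF. At 0 min the ribosome biogenesis list held 0 higher and 14 lower members, and the endoplasmic reticulum stress list 2 and 13. The acute-phase list held 8 higher and 0 lower, the NF-kappaB list 11 and 1, and the cytokine list 10 and 3.

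The change of the genotype difference was tested directly, as the difference of KO minus WT at 60 and at 0 min. It was called for 77 genes (0.706%), 39 with a positive (0.358%) and 38 with a negative value (0.349%). Of these 77, 23 were called at both times in the same direction, 27 only at 60 min, 18 only at 0 min and 9 at both in opposite directions. The number was sensitive to the settings and was 34 when only the arrays at 60 and 0 min were fitted.

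From 0 to 60 min 617 genes (5.66%) changed in KO cells and 572 (5.25%) in WT cells. Among the positive differences were genes whose level rose more in KO cells. Zfp36 read 6.59 to 7.06 on the 4 KO arrays and 6.58 to 6.88 on the 4 WT arrays at 0 min, where the groups overlapped. With the means of 9.82 ± 0.06 in KO cells and 8.27 ± 0.11 in WT cells at 60 min (SD, n = 3 each), the difference changed by 1.46 (SE 0.20, adjusted p = 1.76e-04). Egr4 and Csf2 were not well above background at 0 min in either genotype or at 60 min in WT cells, so their fitted values of 1.13 and 1.21 are no bounds. Il6 had a fitted change of 1.10 (adjusted p = 0.0119). It too lay near background, detected on 3 KO and 1 WT array at 60 min and on 1 of 4 KO and 2 of 4 WT arrays at 0 min, so that the size is uncertain. Klf2, a Kruppel-like factor, was lower in KO cells at 0 min (-0.73, the arrays at 7.23 to 7.41 against 7.99 to 8.09) and higher at 60 min (0.28, adjusted p = 0.0112), a change of 1.0 (SE 0.12, adjusted p = 8.12e-06). Its call at 60 min ended with median scaling (adjusted p up to 0.423) and without KO replicate C (0.0556).

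Egr1 read 10.20 to 10.96 on KO arrays and 11.10 to 11.60 on WT arrays at 0 min, where KO cells were lower by 0.70. At 60 min its difference was not called, unlike that of Klf2. The change of 0.96 was called (SE 0.22, adjusted p = 0.0285). That call was lost in 9 of 14 fits that left out 1 array, with an adjusted p of up to 0.116. The receptor Ptk7, which rose by 0.99 at 60 min and differed by 0.00 at 0 min, changed by 1.0, a call lost in 8 of 14 such fits. Fos, which rose over that hour by 3.32 in KO cells and by 2.10 in WT cells, had a change of 1.21 that was not called (SE 0.35, adjusted p = 0.123).

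The most negative change was that of Cxcl1. It read 12.05 to 12.16 on KO arrays and 7.22 to 7.62 on WT arrays at 0 min, and the difference of 4.66 there was 3.01 at 60 min, a change of -1.65 (SE 0.15, adjusted p = 2.06e-07). Between these times its level changed by 0.53 in KO cells and by 2.18 in WT cells. Chac1 differed by 0.22 at 0 min (adjusted p = 0.0742), with 9.75 to 9.99 in KO cells against 9.53 to 9.79 in WT cells, and stood at 10.52, 10.66 and 10.37 in KO cells against 11.88, 11.73 and 11.81 in WT cells at 60 min, a change of -1.51 (SE 0.15, adjusted p = 9.17e-07). Hes1, a target of Notch and of growth factors, was higher in KO cells at both times, by 1.41 at 0 min and 0.35 at 60 min, and the call at 60 min was lost in 5 of 6 fits without 1 array. Tnfaip3 turned from 0.60 at 0 min to -0.37 at 60 min. The actin regulator Cdc42ep3 differed by -0.03 at 0 min and by -0.98 at 60 min, and the repressor Bcl6 by 0.05 and -0.75. From 0 to 60 min these 6 genes changed by -0.01 to 0.72 in KO cells and by 0.80 to 2.18 in WT cells.

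**Figure D3:**
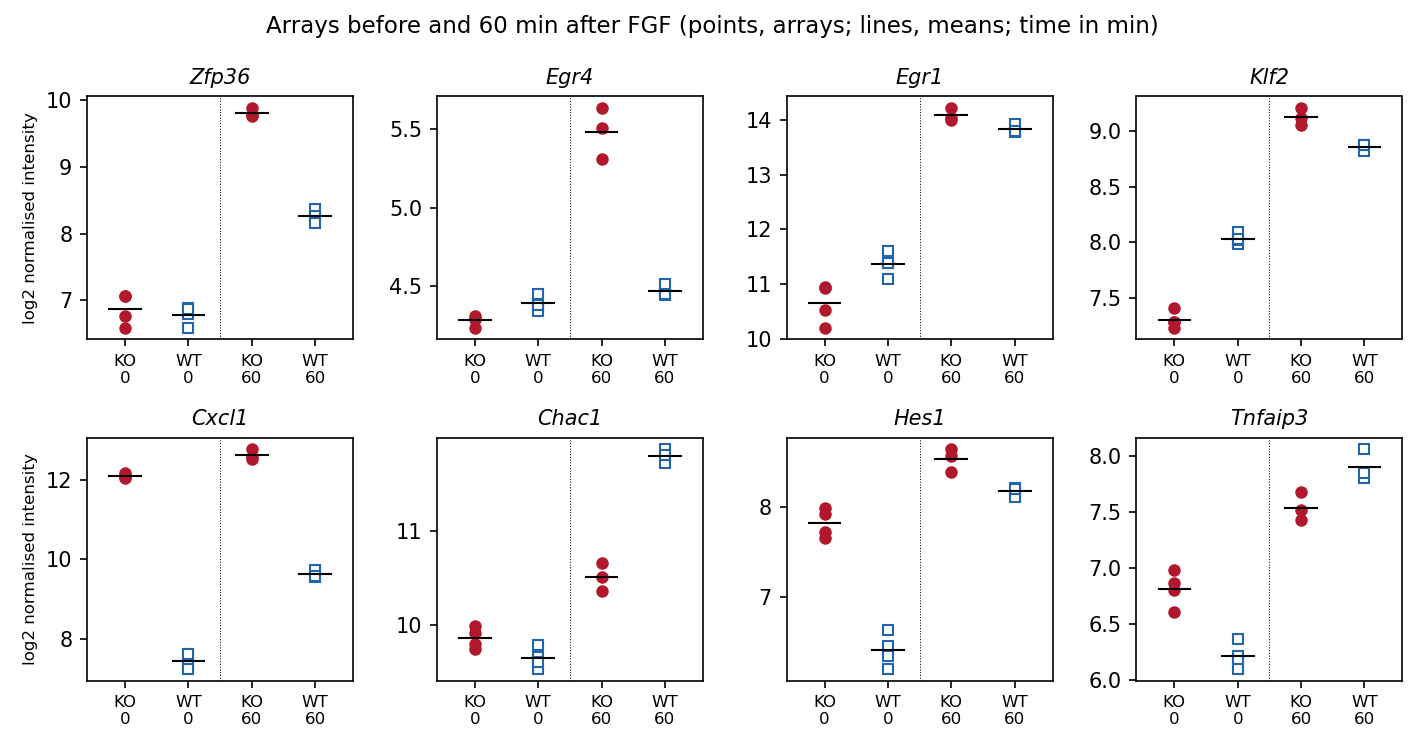
Log2 normalised intensity of 8 genes whose change of the genotype difference between 0 and 60 min was called. Each point is an array (KO filled circles, WT open squares) and each line a group mean. The vertical scales are separate and do not start at 0. In the upper row KO cells gain on WT cells by 60 min, and in the lower row WT cells gain on KO cells. The call of Egr1 was lost in 9 of 14 fits without 1 array. Egr4 was not well above background except in KO cells at 60 min.

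**Figure D4:**
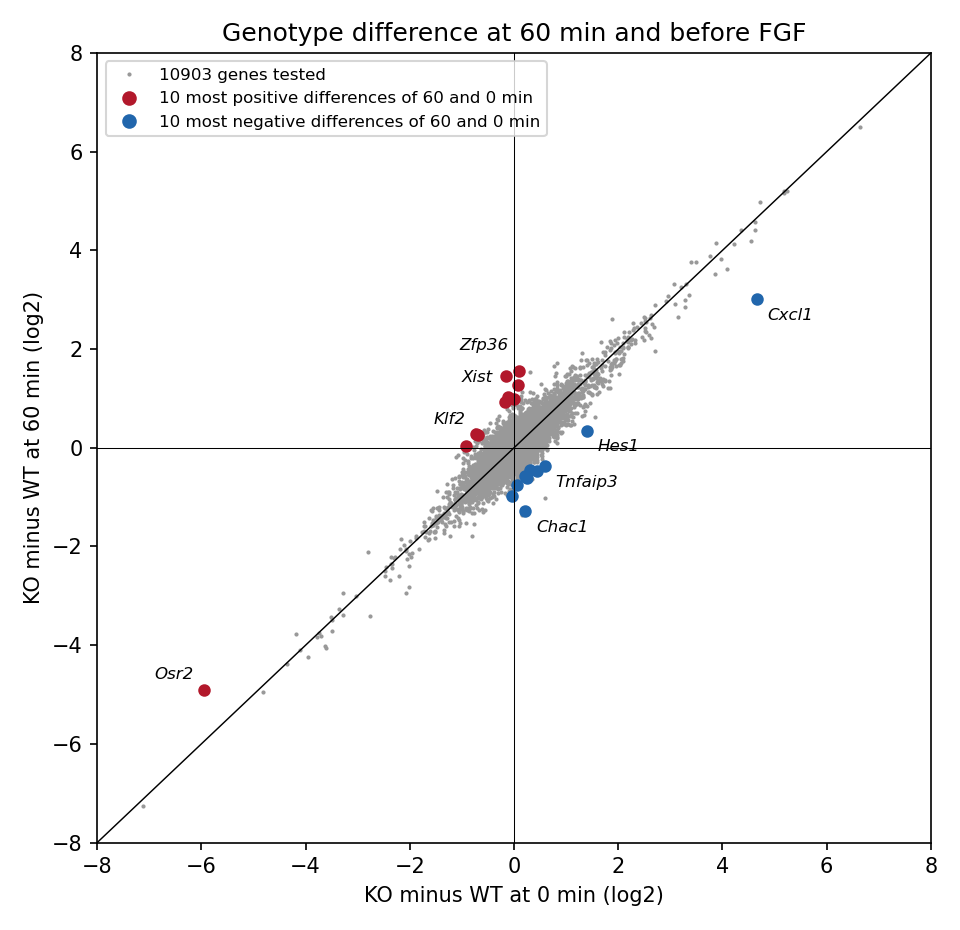
KO minus WT (log2) at 60 min against the same at 0 min for every tested gene, with the line of equal values. Most genes lie along the line (Pearson r = 0.906), and the 10 most positive and 10 most negative called changes, among them Zfp36 above it and Cxcl1 and Chac1 below it, lie off it.

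Set against 120 min, the next time, the genotype difference at 60 min differed for 168 genes (1.54%), 66 with a higher (0.605%) and 102 with a lower value (0.936%) at 60 min. Chac1 differed by -1.29 at 60 min and by 0.63 at 120 min (change -1.92, adjusted p = 2.79e-08), and Ccn2, a matricellular protein, by -0.58 and 1.0 (-1.58, adjusted p = 8.10e-07). The immediate early gene Csrnp1, not called at 60 min, differed by 1.76 at 120 min (change -1.66, adjusted p = 1.56e-07). Csf2 differed by 2.87 between KO and WT cells at 120 min, and Il6 by 0.92 at 60 min and 1.92 at 120 min. The difference of Zfp36 was 0.49 at 15 min, 1.55 at 60 min, 0.84 at 120 min and 0.38 at 240 min, but the change from 60 to 120 min was not called (adjusted p = 0.101).

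The called genes were unevenly spread over the chromosomes, as named by the RefSeq table. Over all genes tested 20.9% were higher and 21% lower. On chromosome 12, 149 of 312 tested genes were higher and 13 lower in KO cells (median 0.29), and on chromosome 9, 230 of 611 were higher and 36 lower (median 0.17). Chromosomes 10, 7 and 18 showed the opposite, with 36 higher and 214 lower of 505 (median -0.22), 50 and 253 of 784 (median -0.15), and 20 and 96 of 246 (median -0.18). The 0 min arrays gave medians of 0.26, 0.17, -0.27, -0.18 and -0.23 on these 5 chromosomes. In 199 blocks of about 50 neighbouring genes, all 6 blocks of chromosome 12 and all 12 of chromosome 9 had a median above 0, and all 10 of chromosome 10, 15 of 16 of chromosome 7 and all 5 of chromosome 18 below 0. With each chromosome's median removed from each array, 3909 of 10033 genes were called (39%), and 487 of them differed by 2-fold or more. Under that setting Zfp36l1, on chromosome 12, stood at -0.04. Its reported 0.27 was called, but not with median scaling (0.15 and 0.13), with the 6 arrays alone (adjusted p = 0.0654) or in 4 of 6 fits without 1 array. Egr1, on chromosome 18, was called at 0.46 (adjusted p = 0.0309). Copy number was not measured, and its part in these medians was not tested.

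**Figure D5:**
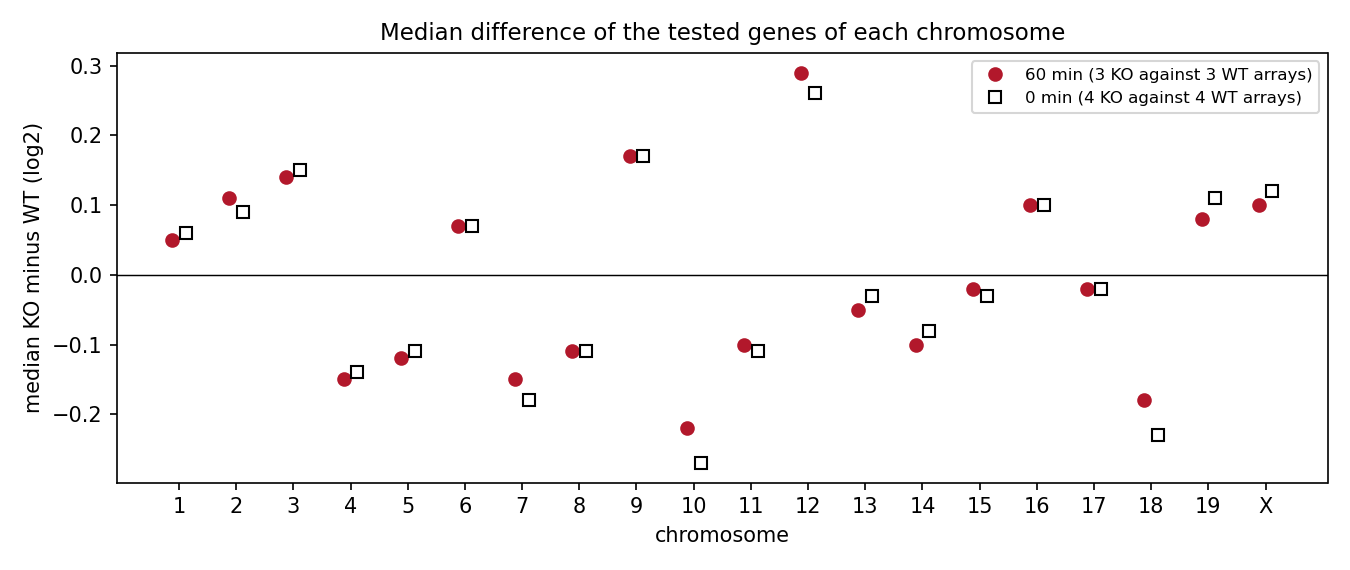
Median KO minus WT (log2) over the tested genes of each chromosome, at 60 min as filled circles and, from other arrays, at 0 min as open squares. The medians run from -0.22 on chromosome 10 to 0.29 on chromosome 12 at 60 min, and the 0 min medians lie close to them.

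Of the Hox cluster genes, which record position along the body, 3 of 21 were higher and 5 lower (38.1% called, median -0.06). Over all genes 42% were called. Hoxd10 read 4.90, 4.99 and 4.86 in KO cells against 7.06, 6.90 and 7.09 in WT cells, a difference of -2.10. Hoxb5, not detected in WT cells, was at least 1.6-fold higher in KO cells, and Hoxb7, not detected in KO cells, at least 1.9-fold lower. Of the imprinted growth genes, 4 of 8 were higher and 3 lower (87.5% called, median 0.19). Mest read 10.04, 9.52 and 9.47 in KO cells, against 6.26, 6.32 and 6.49 in WT cells, 9.99-fold higher. Peg10, by contrast, fell by 1.43 and Phlda2 was at least 1.94-fold lower. Of the fibroblast markers 5 of 11 were higher and 5 lower (90.9% called, median 0.07). The receptor Pdgfrb rose by 2.17 and S100a4 by 1.61, Col1a2 fell by 0.76, and the proteoglycan Lum, not detected in KO cells, was at least 1.85-fold lower. Markers of muscle, endothelium and epithelium had summed levels of at most 49.9 on KO arrays and 100 on WT arrays, and Myod1, Cdh5 and Krt5 were not detected. The keratin Krt8 of the epithelial list fell by 1.5. Adipocyte markers summed to 124 to 140 on KO arrays and 49.5 to 54.5 on WT arrays. Both tested members were higher, the factor Pparg by 1.03 and the lipase Lpl at least 1.41-fold, while Adipoq, Fabp4, Plin1 and Cebpa were not detected. Cartilage and bone markers summed to 119 to 124 on KO arrays and 209 to 292 on WT arrays. Of their 4 tested members 1 was higher and 1 lower (50% called, median -0.02). The cartilage factor Sox9 fell by 1.12. Bglap was called higher, but that call was lost in 3 of 6 fits without 1 array. Neural and glial markers summed to 46.8 to 78 on KO arrays and 399 to 465 on WT arrays, Gap43 among them.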

How the data were processed

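Per the labels, biotin-labelled total RNA was hybridised to Illumina mouse bead arrays. The deposited intensity values are linear, already background-subtracted (some lie below 0) and differ in scale between arrays. GenomeStudio 1.9.0 is listed in the submitters' processing notes. The deposited Detection column, a fraction, was taken as 1 minus the detection p. The authors' series matrix, also a deposited intensity (column medians 10.1 to 10.2), was an alternative. Of other columns with per-sample values, 192 were left out.

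Intensities were processed here with neqc (R 4.3.3, limma 3.58.1: normexp, offset 16, quantile). Probes detected on at least 3 arrays were kept (14716). The brightest kept probe stood for its gene, giving 10041 named genes and 862 probes without a name. Several kept probes existed for 2666 genes, of which 17 had calls in opposite directions. Symbols came from the platform annotation (23978 probes with 1, 0 with several, 1719 with none), 23962 of them matched to RefSeq GRCm38.p6 by gene ID. One limma model with 10 group means was fitted to all 32 arrays, with Benjamini-Hochberg adjustment. It gave every adjusted p except those stated for another setting or with an array left out, which came from limma refits. The scripts were tested on simulated data. There the test of the change from 0 min recovered 31.3% of log2 changes of 0.5 and 91% of those of 1. Of its calls 7.5% were false. Small changes can thus be missed.

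A gene detected on no array of a group has only a bound there. The "at least" fold sets the brighter group's mean against the dim group's, in which each array counts with its lowest detected signal or the gene's own, whichever is higher. The number of arrays limits the precision.

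Named genes are the Sprouty genes, the 12 largest called rises and falls without overlap, the 10 most positive and negative changes from 0 min, up to 5 called members per list, and members of the immediate early, feedback and Wnt lists. The 34 pathway and 8 marker lists, the comparison and this rule were chosen with earlier results of these data known.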

Additional observations from a re-analysis of the deposited data

Results flagged for a closer look

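The difference between genotypes at 60 min was called different from that at 0 or 120 min for a small set of genes, each tested as an interaction in the limma fit. Against 0 min 77 genes were called, and against 120 min 168.

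The 10 most positive changes of the log2 difference from 0 to 60 min were those of Xist (1.62), Zfp36 (1.46), Csf2 (1.21), Egr4 (1.13), Il6 (1.10), Osr2 (1.04), Ptk7 (1.0), Klf2 (1.0), Egr1 (0.96) and Bahcc1 (0.96). The values of Csf2, Egr4 and Osr2 involve groups that were not well above background and are no bounds, and Il6 lay near background at 0 min. Xist read 7.55, 7.33 and 7.29 on KO arrays against 6.09, 5.96 and 5.75 on WT arrays at 60 min, and 5.93 to 6.99 against 6.14 to 6.81 at 0 min. Its change was 0.84 (adjusted p = 0.145) with the mean of its kept probes. Osr2 stayed undetected on KO arrays at both times, while its WT mean was 9.46 at 60 min and 10.54 at 0 min. Bahcc1 differed by 0.03 at 60 min and -0.93 at 0 min.

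The 10 most negative changes were those of Cxcl1 (-1.65), Chac1 (-1.51), Hes1 (-1.06), Tnfaip3 (-0.97), Cdc42ep3 (-0.94), Gadd45g (-0.92), Cep78 (-0.86), Bcl6 (-0.80), Ccn2 (-0.80) and Zfp367 (-0.75). Gadd45g differed by -0.47 at 60 min and by 0.45 at 0 min, both called, and Cep78 by -0.62 and 0.24.

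Among 44 groups of 4 arrays at 0 min, 2 held an array far from the others, where chance flags about 1 in 20: WT replicate C for Bcl6, at 8.38, and WT replicate B for Gadd45g, at 11.83.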

How the results depend on the processing

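The 4 counts of calls between KO and WT at 60 min stayed within 1.5 times the reported ones under every alternative, except that 363 genes were called and past 2-fold with an offset of 50. Leaving out 1 array gave 4013 to 4219 calls, 2010 to 2154 higher, 2001 to 2106 lower and 599 to 635 past 2-fold, whether each gene's probe was picked anew or kept, a choice added after seeing the data. The 6 arrays alone gave 3954 calls. Calls of the change from 0 min numbered 213 with median scaling over all probes, 120 with an offset of 50, 34 with only the arrays at 60 and 0 min, and 52 (without KO 60 min replicate C) to 103 (without WT 0 min replicate C) with 1 array left out. Those of the change from 120 min numbered 261 with the authors' matrix, 258 with a floor in place of normexp, 280 with an offset of 50, and 114 (without WT 120 min replicate C) to 166 with 1 array left out. The cause was not tested. Of 6384 values of named genes at 60 min under alternatives, 6080 kept direction and call, 258 lost and 43 gained it, and 3 turned direction: Sfrp2 at 0 with the authors' matrix and at 0 with the floor, and Zfp36l1 at -0.04 with chromosome medians removed, a setting chosen after seeing the data. Of 500 values of changes from 0 min 457 kept the call and 43 lost it. Arrays that share a letter did not deviate together (correlations of -0.09, 0.00 and -0.07), and with the letter as a replicate block 4462 genes were called at 60 min, 65 for the change from 0 min and 146 for that from 120 min. Signals near background compress differences, so that dim genes have only bounds.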
